A study of Mus musculus with 11 samples.

Results

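The surface markers used to stage pro-B and pre-B cells were followed as a set of 10 genes, Spn, Cd93, Bst1, Cd24a, Il2ra, Cd2, Cd22, Cd72, Ms4a1 and Cd38. They were picked by name from the 23071 identifiers of a mouse RNA-seq table, and all 10 were measured and passed the filter on low values. RNA came from 11 libraries of C57BL/6 mice. The 5 leukemia libraries were of leukemic B cells from lymph node cell suspensions, flash frozen, of 1 Pax5+/- x Ebf1+/- mouse each. The 3 Ebf1+/- libraries and the 3 wild-type libraries were of progenitor B cells, purified on columns from bone marrow and pooled over 3, 6 and 7 Ebf1+/- mice and over 3, 7 and 6 wild-type mice. Leukemic state, the Pax5 allele, tissue, purification and pooling change together between the leukemias and either bone marrow group, and cannot be told apart. The leukemias and the Ebf1+/- pools share the loss of 1 Ebf1 copy, but their reads were aligned with different tools. Ages were not stated in the sources used here, and the label progenitor B cell spans pro-B and pre-B stages.

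B cell precursors in the bone marrow pass from the pro-B stage, where the heavy chain gene is rearranged, through large cycling pre-B cells to small pre-B cells, where the light chain gene is rearranged. Each step is followed on the cell surface by antibodies. CD43 (Spn) and BP-3 (Bst1) mark early precursors. CD93 (Cd93) and CD24 (Cd24a) are carried from the pro-B stage on, and CD25 (Il2ra) and CD2 (Cd2) appear as cells become pre-B cells. CD22 and CD72 are inhibitory co-receptors of the B cell antigen receptor, CD20 (Ms4a1) climbs late in the precursor series, and CD38 is a surface enzyme of B lineage cells.

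Of the markers, Cd38 and Cd72 were far lower in leukemia than in either bone marrow group, and Cd24a was lower too. Il2ra, Cd22, Bst1, Spn and Cd93 were called in none of the 3 comparisons. The promoters of Cd38 and Cd72 are shown because their RNA fell in both leukemia comparisons, and that of Cd22 as the receptor closest in function to Cd72 that was not called. The sequences are RefSeq's on GRCm38.p6, 250 bases before to 50 after the gene's RefSeq start, 5′ to 3′ on the gene's own strand. They lie at chr4:43454577-43454876 on the minus strand for Cd72, chr5:43868559-43868858 on the plus strand for Cd38 and chr7:30878979-30879278 on the minus strand for Cd22. By the GENCODE M21 coordinates used for the genes here, Cd22 starts at 30880342 and Cd38 at 43868553. The Cd22 and Cd38 windows thus lie inside those genes, and the 2 annotations place the starts differently. Distances below are counted from the RefSeq start. Capitals mark matches to the motifs described after the sequences, and in these 3 windows no match overlaps another.
Cd72: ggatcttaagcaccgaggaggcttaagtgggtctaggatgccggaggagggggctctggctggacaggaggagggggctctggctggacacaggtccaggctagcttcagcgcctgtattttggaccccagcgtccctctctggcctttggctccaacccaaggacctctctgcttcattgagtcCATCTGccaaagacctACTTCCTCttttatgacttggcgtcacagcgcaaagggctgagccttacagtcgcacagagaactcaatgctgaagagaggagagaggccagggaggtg
Cd38: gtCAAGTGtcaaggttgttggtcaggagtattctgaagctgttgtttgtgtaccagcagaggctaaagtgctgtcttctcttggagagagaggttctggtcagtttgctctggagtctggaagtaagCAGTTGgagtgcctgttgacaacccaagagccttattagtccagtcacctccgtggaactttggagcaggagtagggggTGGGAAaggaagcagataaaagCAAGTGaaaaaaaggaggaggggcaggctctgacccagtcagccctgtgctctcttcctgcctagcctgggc
Cd22: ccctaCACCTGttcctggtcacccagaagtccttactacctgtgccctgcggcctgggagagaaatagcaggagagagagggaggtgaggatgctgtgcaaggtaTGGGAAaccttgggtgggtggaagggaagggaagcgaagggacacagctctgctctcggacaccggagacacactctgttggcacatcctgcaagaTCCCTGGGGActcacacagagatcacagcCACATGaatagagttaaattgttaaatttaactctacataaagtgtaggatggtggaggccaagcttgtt
RefSeq promoters were matched for 5 markers, these 3 with Il2ra and Spn. Ms4a1, Cd2, Cd93, Bst1 and Cd24a were not matched. On both strands 5 motifs of B cell factors were searched. The EBF1 palindrome, TCCC and GGGA with any 2 bases between them, was in the Cd22 window, 49 bases before the start, and in 0.904% of all 32851 promoters. The PU.1 site GAGGAAGT was in the Cd72 window, also 49 bases before the start, and in 3.2% of promoters. The E-box CANNTG was in the windows of Cd72, Cd38, Cd22 and Spn and in 72.3% of promoters. The Ikaros core TGGGAA was in those of Cd38 and Cd22 and in 25.6%, and the octamer ATGCAAAT was in 0 of the 5 and in 1.74%. These letters are a description of the windows only.

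Values are FPKM, fragments per kilobase of transcript scaled to the library total. Where the makeup of libraries differs, as here, a gene's FPKM also depends on the other RNA in its library. Comparisons between genes depend on the gene lengths used. Library totals ran from 8506680 to 15313920 reads. Differences are of log2(FPKM + 1), which understates changes of low genes, and were called where limma's adjusted p was under 0.05 over all genes tested. The 7 B lineage genes Cd79a, Cd79b, Pax5, Ebf1, Blnk, Vpreb1 and Vpreb3 summed to 2506 to 3619.7 FPKM in leukemia, 1567 to 5386 in Ebf1+/- and 2555 to 4803 in wild-type libraries, with none at 0. Pax5 held 71.4 to 162 FPKM in leukemia, 89.0 to 254 in Ebf1+/- and 175 to 312 in wild type, and Ebf1 54.3 to 81.4 in leukemia, 43.4 to 86.5 in Ebf1+/- and 83.4 to 112 in wild type. Of 14 granulocyte markers the sum was 3.89 to 8.92 FPKM in leukemia, 2716 to 10646 in Ebf1+/- and 630 to 3398 in wild type, with Cebpe at 0 reads in leukemia. The sum of 8 megakaryocyte markers was 0.414 to 1.38 FPKM in leukemia, 145 to 4131 in Ebf1+/- (the highest in replicate 3) and 78.3 to 459 in wild type. Ebf1+/- replicate 2 stood closer to wild-type replicate 2 (r = 0.989 across genes) than any 2 libraries of 1 group stood to each other (at most 0.984), so the called differences, those of Il2ra and the ratio of Cd38 to Bst1 are also given without it. In bulk RNA, fewer cells of a type and less RNA per cell cannot be told apart, and where other cells' RNA differs between groups, as here, its part in the differences was not tested.

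**Figure D1:**
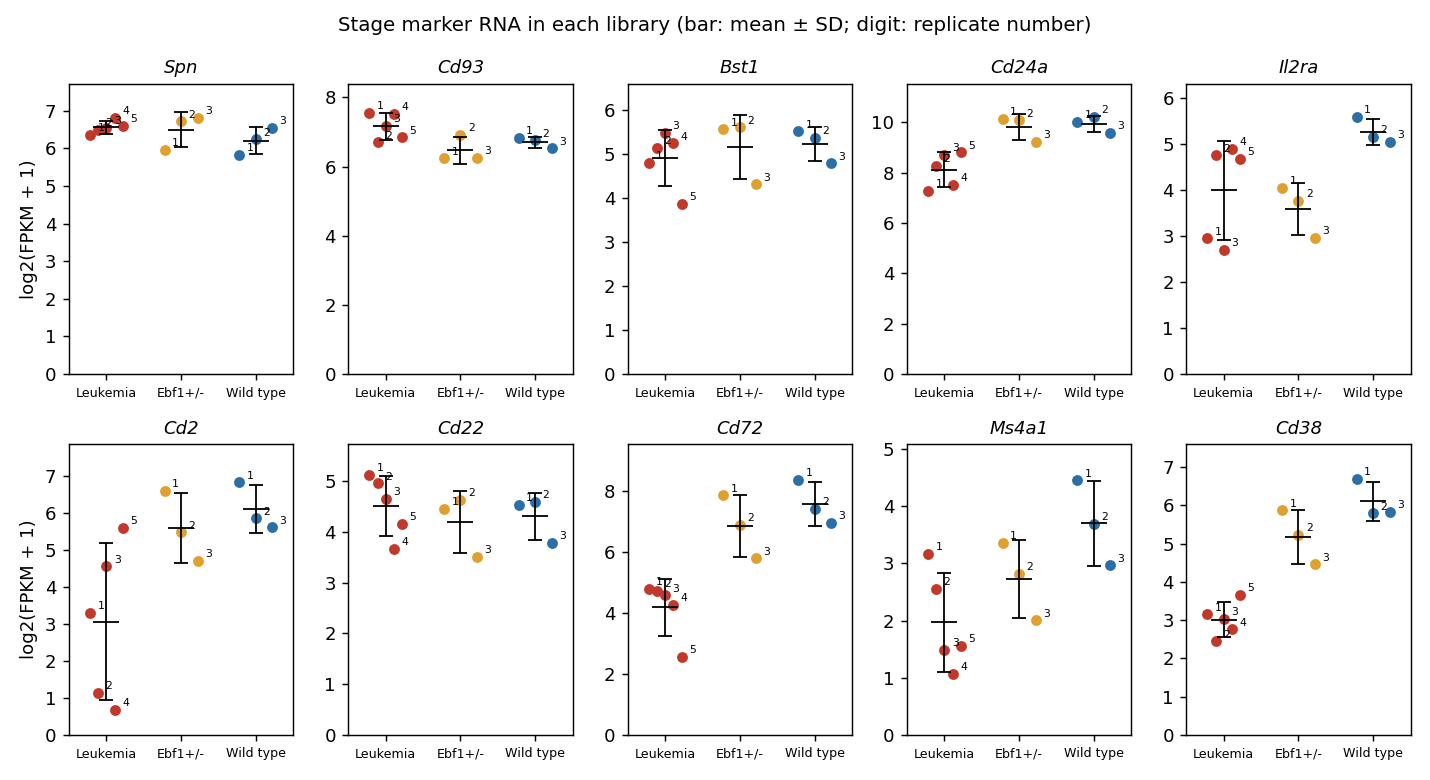
RNA level of the 10 stage markers in each library, as log2(FPKM + 1), with leukemia at the left, Ebf1+/- in the middle and wild type at the right of each panel. Points are libraries with their replicate numbers and black bars are the mean and SD. The 5 leukemias lie below every bone marrow library for Cd24a, Cd72 and Cd38, and Cd2 spreads widely among them.

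The first comparison asked how the leukemias differ from wild-type progenitor B cells in the markers that place a cell in the series. Of the 10 markers, 5 fell in leukemia (Cd24a, Cd2, Cd72, Ms4a1 and Cd38) and 0 rose. Of the 10968 genes tested, 24.1% were called lower, 20.7% higher and 44.8% in either direction. The median difference of the 10 was -1.50, against -0.04 over all genes tested. The leukemias did not overlap wild type, all lying below it, for Cd24a, Il2ra, Cd2, Cd72 and Cd38, as did 25.1% of all genes. Each p-value sets a difference of means against the spread between these libraries, which limma draws toward that of other genes. The spread is taken as the same in both groups, though these are pools of mice in one and single mice in the other.

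Spn, Cd93 and Bst1 were not called. Granulocyte marker RNA was far higher in the wild-type pools (summed 630 to 3398 FPKM, against 3.89 to 8.92 in leukemia). The part of other cells' RNA in the levels of these markers was not tested. Spn, a sialomucin (chromosome 7, 127132232 to 127137823, GRCm38, GENCODE M21), was at 80.6, 88.7, 92.7, 112 and 96.2 FPKM in the leukemias, against 55.9, 74.6 and 92.3 in the wild-type pools. The groups overlapped through wild-type replicate 3, and the difference of 0.36 (SE 0.16) was not called (limma adjusted p = 0.104). Without wild-type replicate 3 it was 0.53 and called (adjusted p = 0.0302). Cd93, a C-type lectin-like receptor (chromosome 2, 148436640 to 148443563), was at 188, 103, 143, 182 and 114 FPKM in leukemia and at 113, 107 and 91.2 in wild type. Leukemias 1, 3 and 4 stood clear above wild type, leukemia 5 was level with the highest pool and leukemia 2 lay within the range of the pools. The difference of 0.45 (SE 0.21, adjusted p = 0.104) was not called. Without leukemia 2 it was 0.57 (adjusted p = 0.0387).

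Bst1, the GPI-anchored ADP-ribosyl cyclase BP-3 (chromosome 5, 43818885 to 43843986), was at 26.8, 34.1, 43.3, 36.5 and 13.5 FPKM in leukemia and 44.5, 39.9 and 26.5 in wild type. Leukemia 5 was the lowest library of all 11, and the others lay within the wild-type range (difference -0.32, 95% confidence interval -1.08 to 0.45, adjusted p = 0.475). Cd24a, the heat stable antigen, a small mucin-like protein held by a GPI anchor (chromosome 10, 43578284 to 43584265), was the most abundant of the markers in every library but leukemia 1, where Cd93 was higher. Its level was 154, 308, 418, 184 and 449.5 FPKM in leukemia against 1043, 1193 and 772 in wild type. Every leukemia lay below every wild-type pool, and the difference of -1.83 (SE 0.36) was called (adjusted p = 0.00358). Among all detected genes it ranked between 127 and 406 in the leukemias and between 45 and 68 in the wild-type pools. Granulocytes and erythroid cells carry CD24 as well, and their RNA was higher in wild type (erythroid marker sum 0.517 to 0.972 FPKM in leukemia and 119 to 730 in wild type, with the 4 listed globin genes at 0 in both). Scaled in each library to Cd79a, a signalling chain of the B cell antigen receptor, Cd24a differed by -1.76 (limma adjusted p = 0.000605). This scaling was chosen after the data were seen. It does not remove Cd24a RNA of other cells, whose part was not tested.

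The pre-B markers set the leukemias apart from each other. Il2ra, the alpha chain of the interleukin-2 receptor (chromosome 2, 11642807 to 11693193), was at 6.74, 26.0, 5.50, 28.8 and 24.6 FPKM in leukemia and at 47.4, 34.6 and 32.3 in wild type. Leukemias 2, 4 and 5 lay just under wild type and leukemias 1 and 3 far under it. The groups did not overlap, yet the difference of -1.27 (SE 0.54) was not called (adjusted p = 0.0811), nor was it without wild-type replicate 2 (-1.33, adjusted p = 0.149) or when scaled to Cd79a (-1.21, adjusted p = 0.0574). Cd2, an adhesion receptor of the immunoglobulin superfamily (chromosome 3, 101275899 to 101287939), was at 8.94, 1.20, 22.6, 0.608 and 47.5 FPKM in leukemia, where leukemia 2 had 18 reads and leukemia 4 had 9. The wild-type pools held 114, 57.3 and 48.2 FPKM. Leukemia 5 almost reached the lowest pool, while leukemia 4 (95% Poisson interval 0.278 to 1.15 FPKM, counting error only) had the lowest value of any marker in any library.

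The fall of Cd2 was -3.05 (SE 1.06, adjusted p = 0.0418), and 8 of 17 other settings did not call it. Its call was lost without leukemia 1, 2 or 4 or any 1 wild-type pool, with adjusted p up to 0.135. Without leukemia 4 the difference was -2.46 and without leukemia 5 it was -3.69. Scaled to Cd79a it was -3.00 (adjusted p = 0.00443). T and NK cells carry CD2 too, and the 12 T cell markers summed to 66.0 to 137 FPKM in leukemia, mostly from Lck, and to 35.2 to 48.8 in wild type, with none at 0. By limma, 1 of the 8 tested T cell markers was called higher (Lck) and 0 lower, where 20.7% and 24.1% of all genes were. Cd3e, the defining T cell marker, was not called. It averaged 0.970 ± 0.633 FPKM in leukemia (SD, n = 5) and 2.10 ± 1.15 in wild type (n = 3).

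The inhibitory receptors parted. Cd22, a sialic acid-binding lectin whose tail recruits phosphatases (chromosome 7, 30865402 to 30880342), was at 33.9, 30.2, 24.2, 11.8 and 16.9 FPKM in leukemia and 22.2, 23.3 and 12.8 in wild type. The groups lay across each other, with a difference of 0.21 (95% confidence interval -0.55 to 0.97, adjusted p = 0.635). Cd72, a C-type lectin with an inhibitory tail that binds semaphorin 4D (chromosome 4, 43446462 to 43454628), was at 26.7, 25.5, 23.0, 18.2 and 4.92 FPKM in leukemia and 332, 169.8 and 124 in wild type. The highest leukemia was far under the lowest pool, and leukemia 5 was far under the other leukemias. Cd72 fell by 3.40 on the log2 scale (SE 0.52, adjusted p = 0.000988), and by 3.00 without leukemia 5 (adjusted p = 0.000226). Tesk1 overlaps Cd72 on the other strand and the strand setting of the counting is not given in the sources used here, so reads of the pair cannot be told apart.

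Ms4a1, the CD20 channel-like protein (chromosome 19, 11249675 to 11266241), was at 8.001, 4.90, 1.80, 1.09 and 1.93 FPKM in leukemia and 20.9, 11.9 and 6.81 in wild type, where it was the lowest marker in each pool. Leukemia 1 lay above the lowest wild-type pool and the other 4 below all pools. The fall of 1.74 (SE 0.50) was called (adjusted p = 0.0204), but not without wild-type replicate 1 (-1.36, adjusted p = 0.0891) or replicate 2 (-1.74, adjusted p = 0.0598). A gene on the other strand, 4930526L06Rik, overlaps Ms4a1, so here too reads cannot be told apart. Cd38, an ADP-ribosyl cyclase and NAD glycohydrolase (chromosome 5, 43868553 to 43912375), was at 7.89, 4.46, 7.24, 5.76 and 11.6 FPKM in leukemia and 102, 54.4 and 56.3 in wild type. All leukemias were far below all pools. Cd38 fell by 3.10 (SE 0.29, adjusted p = 9.07e-05), to 10.4% of the wild-type average. Without wild-type replicate 2, the differences were -3.26 for Cd38 (adjusted p = 0.000574), -3.49 for Cd72 (adjusted p = 0.00521), -1.69 for Cd24a (adjusted p = 0.0194) and -3.17 for Cd2 (adjusted p = 0.0909).

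**Figure D2:**
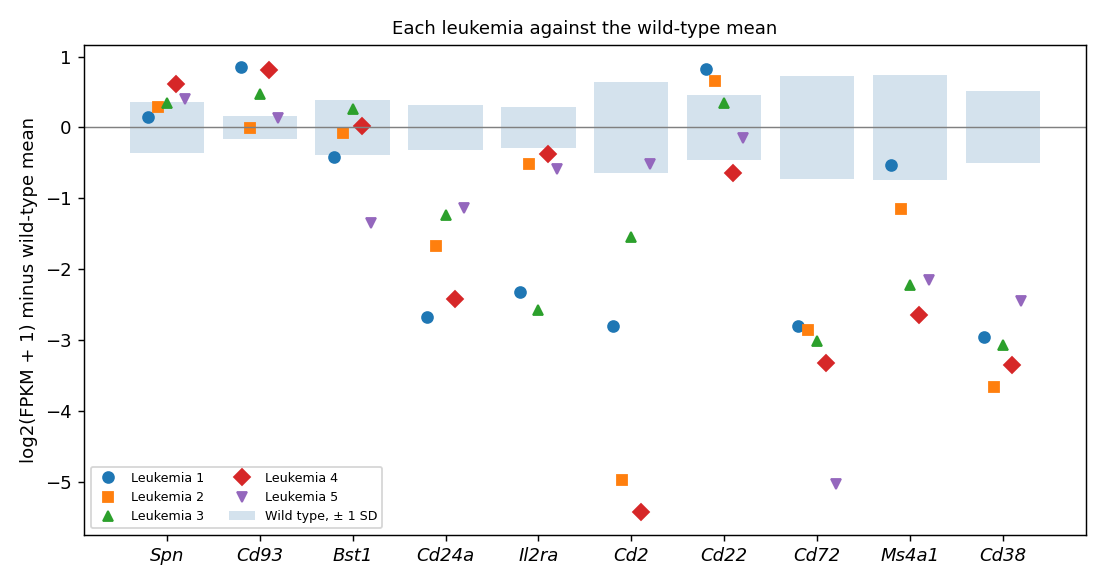
Each leukemia's log2(FPKM + 1) minus the wild-type mean for the 10 markers, with one symbol per leukemia and a blue band of 1 wild-type SD on either side of 0. All 5 leukemias lie below the band for Cd24a, Il2ra, Cd72 and Cd38, while Spn, Cd93 and Cd22 lie within 1 unit of 0, as does Bst1 in all but leukemia 5, and Cd2 runs from near 0 to below -5.

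The leukemias differed from one another most in Cd2, with an SD of 2.13 on the log2 scale and a ratio of 78.1 between the highest and the lowest. That SD was larger than in 99.9% of the 10968 genes tested, whose median was 0.19. Il2ra (SD 1.08), Cd72 (0.93) and Ms4a1 (0.87) also spread more than most genes, with an SD above that of 97.9%, 96.8% and 96.3% of them in that order. Part of this spread was not particular to the leukemias, since among the wild-type pools Cd72, Ms4a1 and Cd2 varied more than 97.0%, 97.1% and 95.9% of genes. Spn was the steadiest at 0.17, close to the median gene. No single leukemia was low in every marker. Leukemia 5 was highest in Cd2, Cd24a and Cd38 and lowest in Cd72 and Bst1, leukemia 4 was lowest in Cd2, Ms4a1 and Cd22 and highest in Il2ra, and leukemia 1 was highest in Ms4a1, Cd22 and Cd93.

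The second comparison asked whether the markers differ with the loss of 1 Ebf1 copy in cells that are not leukemic, as Ebf1+/- against wild-type bone marrow. None of the 10 was called by limma, as with all 11167 genes tested (0% called, and 7.73% at an unadjusted p under 0.05). Of the 10, 1 had an unadjusted p under 0.05. The difference was negative for 9 markers, with a median of -0.37 against 0.03 for all genes. The 3 numbered pairs of pools deviated together, so the fit with the replicate number as a block bears on this comparison, and it called 0 markers as well. Reads of the 2 groups were aligned with different tools, which cannot be told apart from the genotype.

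Il2ra was the marker furthest apart. Its level was 15.6, 12.6 and 6.78 FPKM in Ebf1+/- pools and 47.4, 34.6 and 32.3 in wild-type pools. Every Ebf1+/- pool was below every wild-type pool, and Il2ra was the only marker whose groups did not overlap (8.1% of all genes were lower in Ebf1+/- without overlap). The difference was -1.68 (SE 0.31, unadjusted p = 0.00095, limma adjusted p = 0.228). With the replicate block it was the same size with an adjusted p of 0.0608, and other settings gave 0.209 to 1.00. Without Ebf1+/- replicate 2 it was -1.76 (adjusted p = 0.209), and without wild-type replicate 2 it was -1.73 (adjusted p = 0.701).

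Cd38 was at 57.5, 36.4 and 21.0 FPKM in Ebf1+/- and 102, 54.4 and 56.3 in wild type. The groups overlapped through Ebf1+/- replicate 1, and the difference was -0.92 (SE 0.40, adjusted p = 0.652). Ms4a1 was at 9.24, 6.07 and 3.01 FPKM in Ebf1+/- and differed by -0.98 (SE 0.46, adjusted p = 0.695). Cd72 was at 232, 118 and 54.8 FPKM in Ebf1+/- (difference -0.73, SE 0.57) and Cd2 at 97.0, 43.9 and 25.3 (-0.50, SE 0.52). Within the numbered pairs, 5 of the 10 markers, these 4 and Il2ra, were lower in the Ebf1+/- pool of all 3 pairs, as were 20.4% of all genes tested. Replicate 3 was the lowest Ebf1+/- pool for 8 of the 10 markers, all but Spn and Cd93, and that pool also had the lowest B lineage sum, 1567 FPKM, and the highest megakaryocyte sum. The same held among the wild-type pools, where replicate 3 was the lowest for 8 of the 10 markers. It also had the lowest wild-type B lineage sum, 2555 FPKM, and the highest wild-type megakaryocyte sum, 459 FPKM.

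Cd24a, Spn, Cd93 and Bst1 were not called in Ebf1+/- against wild type. Cd24a was at 1130.5, 1087 and 595 FPKM, Spn at 61.2, 104 and 111, Cd93 at 74.6, 119.7 and 75.0, and Bst1 at 45.9, 47.5 and 18.7. Their differences from wild type ran from -0.24 to 0.29 and all groups overlapped, as did Cd22 at 21.0, 23.9 and 10.4 FPKM (difference -0.10). These intervals were wide, from -0.97 to 0.85 for Bst1, so they do not show that the levels were equal.

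The third comparison set the leukemias against cells that share the loss of 1 Ebf1 copy. Here 3 of 10 markers fell, Cd24a, Cd72 and Cd38, and 0 rose, where 12.3% of the 11161 genes tested were called lower, 9.31% higher and 21.6% in either direction. The same 3 did not overlap between the groups, as did 16.2% of genes in that direction. The leukemia libraries are the same in both leukemia comparisons, so the 2 sets of differences are not independent. In this comparison, too, the reads of the 2 groups were aligned with different tools, which cannot be told apart from the other differences.

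Cd38 differed by -2.17 (SE 0.34, limma adjusted p = 0.00288) and Cd72 by -2.67 (SE 0.58, adjusted p = 0.0120), both called in each of the 17 other settings. Without Ebf1+/- replicate 2 they were -2.15 (adjusted p = 0.0126) and -2.65 (adjusted p = 0.0400). Cd24a differed by -1.70 (SE 0.39, adjusted p = 0.0157), but by -1.56 without Ebf1+/- replicate 2, where it was not called (adjusted p = 0.0580), nor with the replicate block (adjusted p = 0.0707). Cd2 was not called (-2.55, SE 1.08, adjusted p = 0.124) and leukemia 5 lay within the Ebf1+/- range. Without leukemia 5 it was -3.18 and called (adjusted p = 0.0454), and scaled to Cd79a it was -2.58 (adjusted p = 0.0198).

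Against Ebf1+/-, the other markers overlapped. Il2ra averaged 18.3 ± 11.3 FPKM in leukemia (SD, n = 5) and 11.7 ± 4.48 in Ebf1+/- (n = 3), a difference of 0.40 (SE 0.56), and of 0.49 without Ebf1+/- replicate 2 (adjusted p = 0.649). Ms4a1 differed by -0.76 (SE 0.50, adjusted p = 0.303). Cd93 averaged 146 ± 38.5 FPKM in leukemia and 89.7 ± 25.9 in Ebf1+/-, a difference of 0.69 (SE 0.25, adjusted p = 0.0745), called without Ebf1+/- replicate 2 (0.92, adjusted p = 0.0433). Spn, Bst1 and Cd22 differed by 0.07, -0.25 and 0.31.

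**Figure D3:**
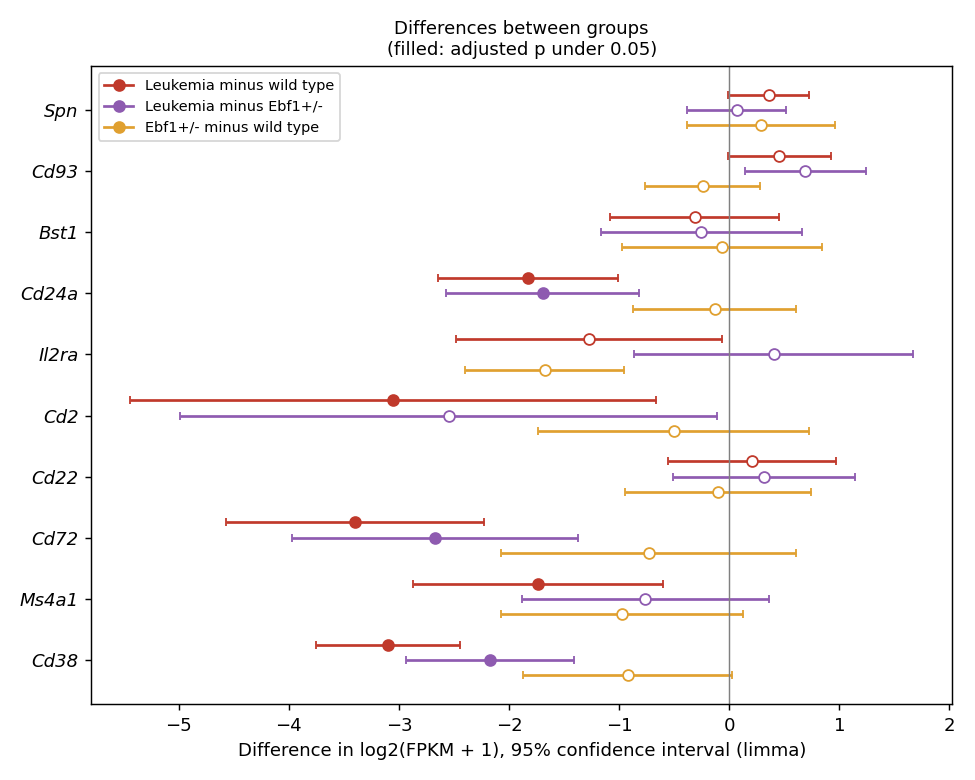
Differences in log2(FPKM + 1) between groups for the 10 markers, with limma's 95% confidence intervals; filled points have an adjusted p under 0.05. Cd72 and Cd38 are far below 0 in both leukemia comparisons, and every interval of Ebf1+/- minus wild type other than that of Il2ra holds 0.

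Cd38 and Bst1 are relatives that lie next to each other on chromosome 5, with 24566 bases and 0 annotated genes between them, and their ratio within a library depends on the library total only through the 1 FPKM added to each. The ratio log2((Cd38 + 1)/(Bst1 + 1)) was -1.64, -2.69, -2.43, -2.47 and -0.21 in leukemia, 0.32, -0.37 and 0.16 in Ebf1+/- and 1.19, 0.44 and 1.06 in wild type. The leukemias were all below wild type, and leukemia 5 lay within the Ebf1+/- range. The mean of leukemia minus that of wild type was -2.78 (two-sided exact permutation p = 0.0357, the smallest that this test allows for 5 against 3 libraries, and 0.1 adjusted over the 3 comparisons). That of leukemia minus Ebf1+/- was -1.92 (exact permutation p = 0.0714, adjusted p = 0.1), and that of Ebf1+/- minus wild type -0.86, where 3 against 3 libraries cannot go below 0.1 (exact permutation p = 0.1, adjusted p = 0.1). Within the numbered pairs, Ebf1+/- minus wild type was -0.87, -0.81 and -0.90, lower in 3 of 3 pairs (exact sign-flip permutation p = 0.25, the smallest that 3 pairs allow). Without wild-type replicate 2, leukemia minus wild type was -3.01 and Ebf1+/- minus wild type -1.09, and without Ebf1+/- replicate 2, leukemia minus Ebf1+/- was -2.12 and Ebf1+/- minus wild type -0.66. Fbxl5 overlaps Bst1 on the other strand, so part of the Bst1 reads may be its own. The part of other cells' RNA in the ratio was not tested.

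**Figure D4:**
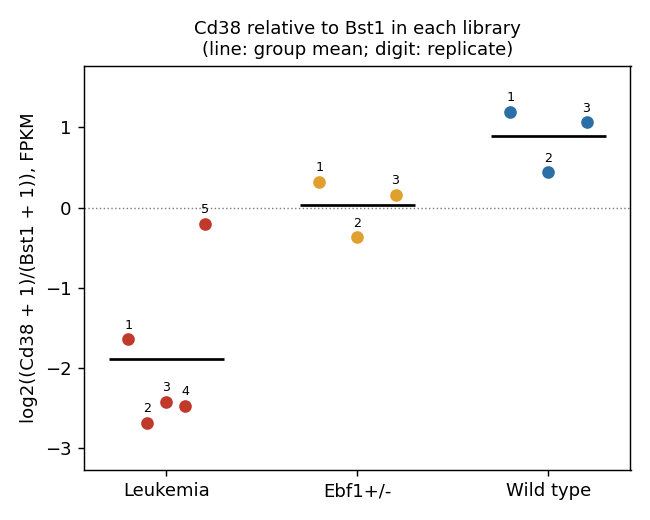
The log2 ratio of Cd38 to its neighbour Bst1 in each library, with 1 FPKM added to each; points are libraries with replicate numbers, lines are group means and the dotted line is equal levels. Leukemias 1 to 4 lie between -2.69 and -1.64, and the 3 wild-type pools between 0.44 and 1.19.

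Genes around the markers, from lists chosen with earlier results known, moved both ways in leukemia against wild type. Their counts are to be read against the 20.7% of all genes tested that rose, the 24.1% that fell and the 44.8% called in either direction. Lists this short with shares near these show nothing particular to them. Of 12 other pro-B and large pre-B genes, 3 rose and 3 fell by limma. Vpreb1, a chain of the surrogate light chain that pairs with the new heavy chain, averaged 918 ± 108 FPKM in leukemia and 247 ± 93.9 in wild type (difference 1.95, adjusted p = 0.000189). Cd34, a sialomucin of early progenitors, averaged 0.0107 ± 0.0238 FPKM in leukemia and 4.77 ± 1.88 in wild type. The median difference of the list was 0.03, against -0.04 over all genes.

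Among 8 pan-B surface genes, 1 rose and 3 fell. Cd52, a GPI-anchored glycopeptide, averaged 333 ± 137 FPKM in leukemia and 123 ± 35.3 in wild type. Cd9, a tetraspanin that platelets also carry, averaged 1.83 ± 1.19 FPKM in leukemia and 37.1 ± 16.7 in wild type. Of the 17 tested among 19 surface genes of immature and mature B cells, 2 rose and 5 fell (median -0.50). Cd40, the receptor for T cell help, averaged 0.758 ± 0.807 FPKM in leukemia and 5.56 ± 2.75 in wild type (difference -1.92, adjusted p = 0.00268). Cd1d1, which presents lipids to NKT cells, averaged 13.6 ± 2.05 FPKM in leukemia and 31.2 ± 11.9 in wild type (difference -1.09, adjusted p = 0.00315).

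Around Cd22 and Cd72, 5 of 10 tested inhibitory receptors, phosphatases and kinases fell and 1 rose (median -0.67), where 24.1% and 20.7% of all genes did. Lyn, the kinase that phosphorylates both receptors, averaged 37.3 ± 10.3 FPKM in leukemia and 109 ± 23.2 in wild type (difference -1.55, adjusted p = 0.00059), and Pirb, an inhibitory receptor also of myeloid cells, 0.235 ± 0.0824 FPKM in leukemia and 3.88 ± 1.62 in wild type. In the interleukin-2 receptor list of 9, 2 rose and 2 fell (median -0.25). Jak3, the kinase on the shared gamma chain, averaged 22.4 ± 5.33 FPKM in leukemia and 8.40 ± 1.74 in wild type (difference 1.30, adjusted p = 0.00088). Il2rb, the beta chain, averaged 1.56 ± 0.650 FPKM in leukemia and 5.97 ± 1.84 in wild type (difference -1.44, adjusted p = 0.0019).

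The family of Ms4a1 had 5 tested genes of 13 in the table, and 1 rose and 2 fell (median -0.28). Ms4a6b averaged 30.2 ± 4.79 FPKM in leukemia and 5.78 ± 1.95 in wild type, and Ms4a3, a gene of granulocyte and monocyte precursors, was listed at 0 in all 5 leukemias and averaged 9.98 ± 2.23 in wild type. Of 6 tested partners of the markers, 1 rose and 3 fell (median -0.35). Cd48, the ligand of CD2 in the mouse, rose (153 ± 31.7 FPKM in leukemia and 72.9 ± 13.2 in wild type, adjusted p = 0.00214). Selp, the P-selectin of platelets that binds sialomucins, averaged 0.0569 ± 0.0415 FPKM in leukemia and 2.67 ± 1.26 in wild type. Of 8 tested SLAM relatives of Cd2, 4 rose and 2 fell (median 0.17), among them Cd244, another CD48 receptor, at 22.03 ± 3.62 FPKM in leukemia and 1.34 ± 0.521 in wild type (difference 3.31, adjusted p = 7.02e-06). In Ebf1+/- against wild type, 0 genes of these lists were called.

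The genes whose levels ran most like each marker over the 11 libraries were sought among the 8197 genes averaging 5 FPKM or more, as a description only, since the points share the group differences and library composition. Cd38 ran most like Rell1 (Pearson r = 0.988), Cd24a like Tacc3 (0.976), Cd72 like Ppp6c (0.973) and Cd2 like Mlx (0.949). Cd93 ran like Rptor (0.948), Ms4a1 like Serp1 (0.947), Spn like Pacs1 (0.943) and Il2ra like Rnf145 (0.907). The lowest best values were those of Cd22 with Rassf5 (0.892) and Bst1 with Apobec3 (0.862).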

How the data were processed

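Mouse RNA was measured by RNA-seq in 5 leukemia, 3 Ebf1+/- and 3 wild-type libraries. The authors deposited 1 table of FPKM values. Per the submitters' processing notes, BWA 0.7.12 with mm10/GRCm38 was used for wild type and leukemia, and TopHat2 and Cufflinks with mm10 for Ebf1+/-, so alignment and that group cannot be told apart. How reads were counted, and on which gene models, is not given in the sources used here. Of the 23071 identifiers, 27 were dates made from gene symbols and were not named. All 17380 genes above 0 gave whole reads within 0.001 read once each gene's length and each library's total were found. The totals were 8506680 to 15313920 reads. Poisson intervals cover counting error only, and limma's intervals the spread between libraries.

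Genes averaging 1 FPKM or more over the libraries compared were fitted by limma 3.58.1 under R 4.3.3 (log2(FPKM + 1), eBayes with trend, two-sided, Benjamini-Hochberg, called at an adjusted p under 0.05), and the procedure was tested on simulated data. Python 3.11.15, NumPy 2.4.6, pandas 2.3.3, SciPy 1.17.1 and Matplotlib 3.10.9 did the rest. The replicate numbers were taken to pair Ebf1+/- and wild type, since their deviations from group means correlated by 0.65, 0.32 and 0.69 for numbers 1, 2 and 3, though the labels state no shared day. The members and gene lists were chosen with earlier results of these data known. Named were the 10 markers, Pax5 and Ebf1, from each list the 2 called genes of smallest p in leukemia against wild type, the 1 gene most like each marker, and of each marker list the gene of highest mean; genes named outside this were chosen after their values were seen. Planned count-model tests on the recovered reads were not run, since the deposited unit is FPKM. Some list genes are not reported here and were left out of the lists. Promoters are RefSeq's on GRCm38.p6.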

Additional observations from a re-analysis of the deposited data

Results flagged for a closer look

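Cd72 in leukemia 5 stood apart from the other leukemias. It was at 4.92 FPKM (106 reads), against 18.2 to 26.7 FPKM in leukemias 1 to 4. The gap to its nearest neighbour was 0.763 of the whole range of the 5 log2 values, above Dixon's critical value of 0.71. The other 9 markers did not pass this test among the leukemias. By chance about 1 in 20 groups passes it, and 10 were tested.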

How the results depend on the processing

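Of the recomputed marker differences, 454 kept their direction and their side of the threshold, 12 lost the call, 8 gained it and 15 changed sign. Cd38 and Cd72 in both leukemia comparisons and Cd24a against wild type were called in all 17 other settings. No sign change touched a called difference. With 1 replicate left out, Cd22 ran from -0.053 to 0.42 in leukemia minus wild type, from -0.035 to 0.53 in leukemia minus Ebf1+/- and from -0.37 to 0.24 in Ebf1+/- minus wild type. Leukemia minus Ebf1+/- ran from -0.20 to 0.23 for Spn and from -0.68 to 0.0061 for Bst1, and Ebf1+/- minus wild type from -0.29 to 0.36 for Bst1 and from -0.31 to 0.17 for Cd24a. With the replicate block, leukemia minus Ebf1+/- turned to -0.12 for Il2ra and -0.031 for Spn. Scaled to Cd79a, Ebf1+/- minus wild type turned to 0.028 for Bst1. The cause was not tested.

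Markers called in leukemia against wild type numbered 3 to 5 when 1 replicate was left out, with 3 without wild-type replicate 1 or 2. With the replicate block, where leukemias 4 and 5 have no partner and drop out of the contrast, 7 were called, among them Il2ra (-1.80, adjusted p = 0.0309) and Cd22 (0.61, adjusted p = 0.0285), but these numbers do not pair the samples (correlations of deviations -0.05, 0.07 and -0.13). The block called 944 genes against 2409 without it in leukemia against Ebf1+/-, and 0 in Ebf1+/- against wild type, as without it. In that last comparison other settings called 3 genes (pseudocount 0.1), 2 (median-ratio scaling), 23 (all groups in 1 fit), 3 (scaled to Cd79a) and 0 to 5 with 1 replicate left out, 5 of them without Ebf1+/- replicate 3, and 0 markers. Scaling to Cd79a, added with voom on the recovered reads after the data were seen, called 1936 genes in leukemia against wild type (918 higher, 1018 lower), where the deposited scale called 4914 (2267 higher, 2647 lower), and 804 against Ebf1+/- (178 higher, 626 lower, and 1039 and 1370 on the deposited scale). Quantile scaling called 2632 higher and 2385 lower against wild type and 1568 and 1120 against Ebf1+/-. With a filter of 5 FPKM, Ms4a1 was not tested against Ebf1+/-. Planned count-model tests were not run. Depth limited Cd2 in leukemias 2 and 4, with 18 and 9 reads.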

Other observations

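Markers of other blood cells also separated the leukemias from the bone marrow pools. The top granulocyte gene, S100a9, averaged 2.37 ± 1.69 FPKM in leukemia (SD, n = 5), 1709 ± 1714 in Ebf1+/- (n = 3) and 644 ± 540 in wild type (n = 3). The platelet chemokine gene Ppbp averaged 0.0561 ± 0.0591 FPKM in leukemia, 743 ± 1119 in Ebf1+/- and 124 ± 97.8 in wild type, and the erythroid carbonic anhydrase gene Car1 was listed at 0 in all leukemias and averaged 332 ± 179 in Ebf1+/- and 304 ± 255 in wild type. Lyz2, a lysozyme gene of myeloid cells, averaged 84.6 ± 52.8 FPKM in leukemia, 907 ± 650.1 in Ebf1+/- and 382 ± 118 in wild type. Lck, a kinase best known in T cells, went the other way, at 71.1 ± 21.4 FPKM in leukemia, 20.2 ± 4.70 in Ebf1+/- and 15.3 ± 3.27 in wild type. The summed NK cell, dendritic, mast cell, plasma cell and stem cell markers overlapped between leukemia and wild type. Of the genes tested in the dendritic, NK cell, plasma cell and mast cell lists by limma in leukemia against wild type, 2 of 3 dendritic genes fell and 0 rose (differences -3.28 for Siglech and -1.28 for Ccr9), 1 of 4 NK cell genes fell and 1 rose, 1 of 3 plasma cell genes fell and 1 rose, and the 1 mast cell gene tested was not called. Against Ebf1+/-, 3 of 4 dendritic genes fell (Siglech, Ccr9 and Cd209a). Of the top genes of these lists, Nkg7 of NK cells averaged 13.8 ± 12.6 FPKM in leukemia, 44.7 ± 25.6 in Ebf1+/- and 10.7 ± 1.97 in wild type, and the cytokine receptor gene Flt3 of dendritic and progenitor cells 21.1 ± 20.8 in leukemia, 13.5 ± 5.98 in Ebf1+/- and 12.1 ± 7.74 in wild type. Kit, the stem cell factor receptor gene, averaged 19.0 ± 7.72 FPKM in leukemia, 24.4 ± 12.8 in Ebf1+/- and 19.5 ± 16.6 in wild type, and Xbp1, a transcription factor gene of plasma cells, 35.5 ± 4.17 in leukemia, 42.3 ± 10.9 in Ebf1+/- and 31.8 ± 2.08 in wild type. The endothelial and stromal sum did not, at 26.0 to 44.9 FPKM in leukemia, 50.01 to 82.3 in Ebf1+/- and 68.7 to 105 in wild type. Pecam1, its top gene, fell in leukemia against wild type (33.9 ± 6.59 FPKM in leukemia, 56.4 ± 12.3 in Ebf1+/- and 59.3 ± 9.83 in wild type, limma adjusted p = 0.00534). Vpreb3, of the surrogate light chain family, averaged 597 ± 234 FPKM in leukemia, 971 ± 636 in Ebf1+/- and 1047.8 ± 363 in wild type.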
